A study of Mus musculus with 9 samples.

Results

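Dendritic cells carry many of the signals of the tumor necrosis factor (TNF) superfamily that T cells, B cells and stromal cells read. The 10 ligand genes described here are *Tnf*, *Tnfsf4*, *Tnfsf8*, *Tnfsf9*, *Tnfsf10*, *Tnfsf12*, *Tnfsf13*, *Tnfsf13b*, *Tnfsf14* and *Cd70*, taken by symbol from the 24054 genes of each library, and every one of them passed the filter on low counts that left 14452 genes. The study asked how splenic CD11b+ dendritic cells of early life, which differ in origin, compare with each other and with those of adults. It used C57BL/6 mice of the genotype Clec9a-Cre/Cre Rosa-tdTomato/tdTomato in every group, so that cells whose precursors had expressed *Clec9a* carry the fluorescent protein tdTomato (TOM). Live autofluorescence-negative MHCII+ CD11c+ CD11b+ spleen cells were sorted into TOM+ cDC2 and TOM- DC2 at postnatal day 8, and into TOM+ cDC2 from mice of 8 weeks (2 libraries) or 9 weeks (1 library), with 3 libraries in each of the 3 groups. Spleens of the young mice were pooled before the sort, the label depends on the Cre driver, and there are no TOM- cells from adults, so that a comparison of young TOM- DC2 with adults differs in both age and label.

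Ligands of this superfamily are mostly made as trimeric membrane proteins, and some are shed as soluble cytokines by proteases. *Tnf* itself is an inflammatory cytokine with a short-lived transcript. *Tnfsf4* (OX40L), *Tnfsf8* (CD30L), *Tnfsf9* (4-1BBL), *Tnfsf14* (LIGHT) and *Cd70* engage receptors on T cells and act as costimulators. *Tnfsf10* (TRAIL) binds death receptors, *Tnfsf12* (TWEAK) binds Fn14, and *Tnfsf13* (APRIL) and *Tnfsf13b* (BAFF) sustain B cells and plasma cells.

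The libraries held 12783252 to 22809401 counts on genes. Of the 12 markers of cDC2, all were detected, and their summed level was 70149 to 115000 TPM in the 9 libraries (TPM is a level scaled for transcript length and library depth). Most of this sum came from *Cd74*, *H2-Ab1* and *H2-Aa*, so it says little about the other markers. The young libraries carry numbers in the deposited names that pair a TOM+ with a TOM- library (pairs 1 to 3, in the order in which values are given for both young groups), and both libraries of pair 1 stood apart from the other young libraries. The TOM- library of pair 1 also held transcripts of red cells and neutrophils, with *Hba-a1* at 444 TPM against 0 to 35.8 TPM elsewhere and *Ngp* at 15.5 TPM against at most 0.09 TPM. In bulk RNA a change in the share of expressing cells and a change in RNA per cell cannot be told apart.

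The ligand genes sit in a few places of the mouse genome (build GRCm38, RefSeq coordinates). *Tnf* lies on chromosome 17 at chr17:35199367-35202007, between the lymphotoxin genes *Ltb* and *Lta*, with which it spans 11072 bases. *Tnfsf9* (chr17:57105287-57107758), *Cd70* (chr17:57145997-57149777) and *Tnfsf14* (chr17:57189474-57194181) follow each other within 88895 bases of the same chromosome. *Tnfsf13* (chr11:69682577-69685554) and *Tnfsf12* (chr11:69686240-69696098) are 685 bases apart. *Tnfsf4* (chr1:161395438-161418206), *Tnfsf10* (chr3:27317077-27339665), *Tnfsf8* (chr4:63831202-63861508) and *Tnfsf13b* (chr8:10006229-10036000) stand alone.

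Sequence is shown for a control element of *Tnf*, one of the 2 abundant ligands, and for promoters of ligands that differ with age. The former is the AU-rich element of the *Tnf* 3′ untranslated region, through which RNA-binding proteins shorten the life of this transcript. The 30 bases that hold the most ATTTA pentamers are given in the sense of the transcript, with the pentamers in capitals (GENCODE M21, build GRCm38, chr17:35199679-35199708, minus strand, bases 437 to 466 of a 3′ untranslated region of 764 bases).
*Tnf* AU-rich element: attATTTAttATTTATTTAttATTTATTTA
The window holds 5 pentamers, and the whole region holds 8 pentamers and 5 overlapping copies of the nonamer TTATTTATT. Of 1502 tested genes with a 3′ untranslated region of similar length (80 to 120% of it), 4.59% held any nonamer and 0.20% held as many pentamers. Among the other 9 ligands, 1 nonamer was found, in *Tnfsf13b*, whose region was 3631 bases long, and 15.4% of genes of similar length held it too. *Tnfsf9*, the other abundant ligand, had no nonamer in 253 bases.

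Promoters are shown for the 3 ligands that rose in adult TOM+ cDC2 and for which the RefSeq table (GRCm38.p6) gave a window of 250 bases before to 50 bases after the annotated start. Capitals mark matches, on either strand, to the AP-1 motif TGANTCA or to GAAANNGAA, the core of the interferon-stimulated response element. The NF-κB motif was searched as well.
*Tnfsf8* promoter, chr4:63861235-63861534, minus strand: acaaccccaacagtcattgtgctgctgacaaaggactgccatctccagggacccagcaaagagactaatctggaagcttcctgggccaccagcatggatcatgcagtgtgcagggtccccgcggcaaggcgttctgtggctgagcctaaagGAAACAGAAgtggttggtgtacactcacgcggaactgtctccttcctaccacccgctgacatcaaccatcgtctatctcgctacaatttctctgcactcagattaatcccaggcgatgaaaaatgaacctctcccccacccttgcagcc
*Tnfsf14* promoter, chr17:57194132-57194431, minus strand: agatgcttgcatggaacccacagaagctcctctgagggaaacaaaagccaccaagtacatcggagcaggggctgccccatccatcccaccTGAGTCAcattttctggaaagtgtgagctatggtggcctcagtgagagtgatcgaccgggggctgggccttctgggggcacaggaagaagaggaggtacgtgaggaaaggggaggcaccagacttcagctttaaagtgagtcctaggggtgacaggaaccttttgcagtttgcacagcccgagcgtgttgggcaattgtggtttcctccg
*Tnfsf10* promoter, chr3:27316827-27317126, plus strand: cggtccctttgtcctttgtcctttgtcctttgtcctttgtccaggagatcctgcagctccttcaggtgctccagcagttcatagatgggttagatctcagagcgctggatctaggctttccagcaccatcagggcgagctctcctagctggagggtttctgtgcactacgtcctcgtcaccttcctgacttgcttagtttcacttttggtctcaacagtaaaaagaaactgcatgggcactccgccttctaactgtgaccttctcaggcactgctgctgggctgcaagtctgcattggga
The *Tnfsf8* window held 1 interferon-type match, which begins 99 bases before the start of that window. This start lies inside the *Tnfsf8* span given above, which ends at chr4:63861508. The match therefore also lies within the span of the gene and not upstream of its outer end. The *Tnfsf14* window held 1 AP-1 match, which begins 160 bases before the start. No motif was matched in the *Tnfsf10* window, nor in the 300 bases of the *Tnf* window. Matches also lay in windows, not shown, of ligands that did not pass with age. AP-1 matches were found for *Tnfsf13* and *Tnfsf13b*, and an interferon-type match for *Tnfsf13b*. Among 27025 promoters of this length, 7.93% held the AP-1 motif, 8.57% the interferon-type core and 8.18% the NF-κB motif, which none of the windows of *Tnf*, *Tnfsf8*, *Tnfsf10*, *Tnfsf13*, *Tnfsf13b* and *Tnfsf14* held. A match is a match of letters and not a measured site.

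The repertoire of ligands was dominated by *Tnf* and *Tnfsf9* in all 3 groups. Together they made up 93.1 to 96.3% of the summed TPM of the 10 ligands in young TOM+ cDC2, 91.8 to 95.7% in young TOM- DC2 and 89.9 to 93.0% in adult TOM+ cDC2. In mean TPM, *Tnf* ranked 1250 of 14452 genes in young TOM+ cDC2, 820 in young TOM- DC2 and 780 in adults. *Tnfsf9* ranked 1146, 1501 and 1201 in the same order. *Tnfsf14* and *Tnfsf8* followed at 2.75 to 17.9 TPM, and the other 6 ligands stayed at or below 4.87 TPM in every library. The other 8 ligands summed to 12.9 to 14.7 TPM in young TOM+ cDC2, 16.7 to 18.1 TPM in young TOM- DC2 and 25.8 to 33.2 TPM in adults, and these ranges did not overlap.

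**Figure D1:**
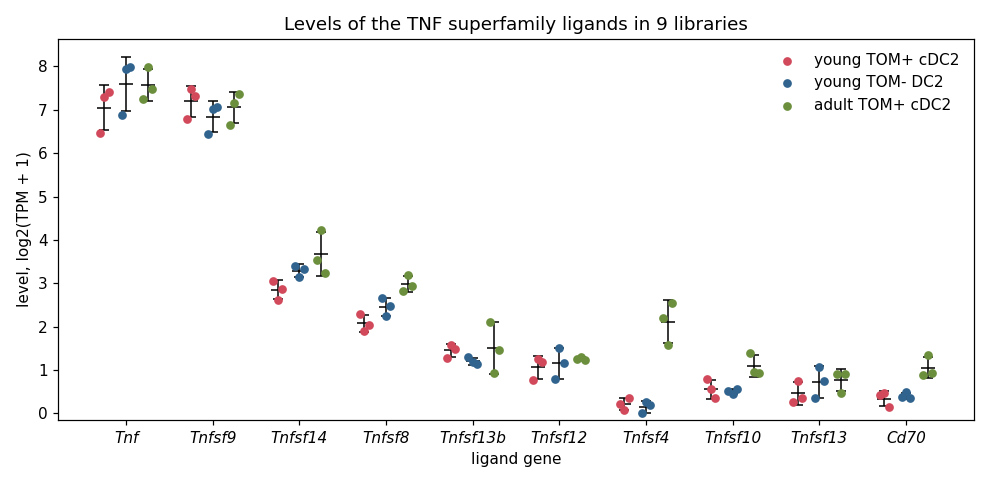
Level of each ligand gene, as log2(TPM + 1), in 3 libraries of young TOM+ cDC2, 3 of young TOM- DC2 and 3 of adult TOM+ cDC2. Points are libraries, and the horizontal mark and bars are the mean and SD of the log2 values of a group. *Tnf* and *Tnfsf9* lie far above the rest, and *Tnfsf4* is near 0 in all 6 young libraries and at 1.99 to 4.87 TPM in adults.

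Comparison of young with adult TOM+ cDC2 addressed the effect of age in cells with the same label. It showed 5 of the 10 ligands higher in adults and none lower. The 5 were *Tnfsf4*, *Tnfsf8*, *Tnfsf10*, *Tnfsf14* and *Cd70*, each with an adjusted p below 0.05 and a log2 fold change beyond 1 (edgeR quasi-likelihood test, Benjamini-Hochberg over 14452 genes). Of all genes tested, 19.5% were higher in adults at this p, and 6.86% when the change also had to exceed 1. The CPM (counts scaled to library size) of the groups did not overlap for these 5 ligands, as for 51.1% of all genes. The median log2 fold change of the 10 ligands was -1.12, against 0.05 over all genes. This median includes *Tnfsf13*, which held 0 to 2 reads a library. With limma on log2(TPM + 1), where genes under a mean of 1 TPM (*Tnfsf10* and *Cd70* among them) were left out, 3 ligands passed and only *Tnfsf4* also exceeded the size threshold.

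*Tnfsf4*, the OX40 ligand, differed most. Its TPM was 0.17, 0.06 and 0.27 in young TOM+ cDC2 and 3.61, 1.99 and 4.87 in adults. The young libraries held 9 reads in all and the adult libraries 144, which gave a 23.6-fold ratio after correction for library size (95% counting interval 12.1 to 52.6). The fitted log2 fold change was -4.47 ± 0.52 (SE, n = 3 libraries per group, adjusted p = 3.4e-05 by edgeR). The transcript was close to the lower limit of detection in both young groups, whereas every adult library lay above every young library.

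*Tnfsf8*, the CD30 ligand, rose 2.37-fold. It stood at 3.89, 2.75 and 3.13 TPM in young TOM+ cDC2 and at 6.10, 8.17 and 6.69 TPM in adults, and the log2 fold change was -1.24 ± 0.17 (SE, n = 3, edgeR adjusted p = 0.00014). The spread among libraries was small in both groups, with SDs of 0.58 and 1.07 TPM.

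*Tnfsf14*, which encodes LIGHT, rose 2.09-fold. Its levels were 7.30, 5.16 and 6.35 TPM in young TOM+ cDC2 and 10.6, 17.9 and 8.46 TPM in adults. The log2 fold change of -1.07 ± 0.24 (SE, n = 3, edgeR adjusted p = 0.0041) lay close to the size threshold. Replicate 2 of the adults was the highest of all libraries, and without it the change was -0.69 (adjusted p = 0.013), while without replicate 2 of young TOM+ cDC2 it was -0.96 (adjusted p = 0.019). The difference thus kept its direction, stayed below the p threshold and missed the size threshold without either library.

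*Cd70*, the ligand of CD27, was scarce at every age. Its TPM was 0.34, 0.38 and 0.10 in young TOM+ cDC2 and 0.85, 1.53 and 0.92 in adults. This corresponds to 7 reads in the young and 22 reads in the adult libraries, and to a 4.63-fold ratio (95% counting interval 1.91 to 12.8). The log2 fold change was -2.16 ± 0.65 (SE, n = 3, edgeR adjusted p = 0.020). The adjusted p rose to 0.070 without replicate 3 of young TOM+ cDC2 and to 0.066 without replicate 2 of adults, so the call rested on these libraries.

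*Tnfsf10*, which encodes TRAIL, rose 2.88-fold from a low level. It measured 0.72, 0.47 and 0.27 TPM in young TOM+ cDC2 and 1.62, 0.94 and 0.91 TPM in adults, with a log2 fold change of -1.53 ± 0.35 (SE, n = 3, edgeR adjusted p = 0.0040).

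The abundant ligands did not pass the test with age. *Tnf* was at 87.3, 155 and 168 TPM in young TOM+ cDC2 and at 152, 253 and 178 TPM in adults, and the groups overlapped. Its log2 fold change was -0.62 ± 0.32 (SE, n = 3, edgeR adjusted p = 0.15), and the estimate plus and minus 2 SE ran from -1.26 to 0.03, which includes a doubling in adults. *Tnfsf9* was at 110, 176 and 160 TPM in young TOM+ cDC2 and at 99.4, 141 and 163 TPM in adults. Its estimate was 0.03 ± 0.23 (SE, n = 3, edgeR adjusted p = 0.93), with a range of -0.44 to 0.50 at 2 SE. With the numbers of all 9 libraries as a block, in which adult replicate 3 stands alone, *Tnf* was at -0.38 ± 0.12 (edgeR adjusted p = 0.017) and *Tnfsf9* at 0.38 ± 0.11 (edgeR adjusted p = 0.010). Whether these genes passed therefore depended on this choice, and neither exceeded the size threshold. Thus without this block, *Cd70* and *Tnfsf14* of the chromosome 17 cluster passed and *Tnfsf9* of the same cluster did not. The difference between their changes was not tested.

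The ligands of the B cell axis were low and variable. *Tnfsf13b* (BAFF) was at 1.42, 2 and 1.82 TPM in young TOM+ cDC2 and at 3.34, 0.90 and 1.77 TPM in adults, where the highest and the lowest of all 9 libraries fell in the same group. Its log2 fold change was -0.36 ± 0.39 (SE, n = 3, edgeR adjusted p = 0.50). *Tnfsf13b* was at 1.45, 1.28 and 1.19 TPM in young TOM- DC2 and differed from adults by -0.74 ± 0.40 (SE, n = 3, edgeR adjusted p = 0.17). *Tnfsf13* (APRIL) was counted with 0 to 2 reads in any library, so its fold change is not interpreted. That fold change still enters the median of the 10 ligands and the ranges with a library left out. The RSEM level of *Tnfsf13* was 0.20 to 1.11 TPM. *Tnfsf12* (TWEAK) was counted with 3 to 15 reads, stood at 0.70 to 1.83 TPM and had an estimate of -0.47 ± 0.60 (SE, n = 3, edgeR adjusted p = 0.56). These 2 genes overlap a joint transcript, listed separately in the files, whose reads STAR's gene counts leave out as ambiguous. The estimation by RSEM, which divides such reads, gave 10.2 to 28.6 expected counts to *Tnfsf12*, 3.64 to 17.2 to *Tnfsf13* and 5.09 to 30.6 to the joint transcript.

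**Figure D2:**
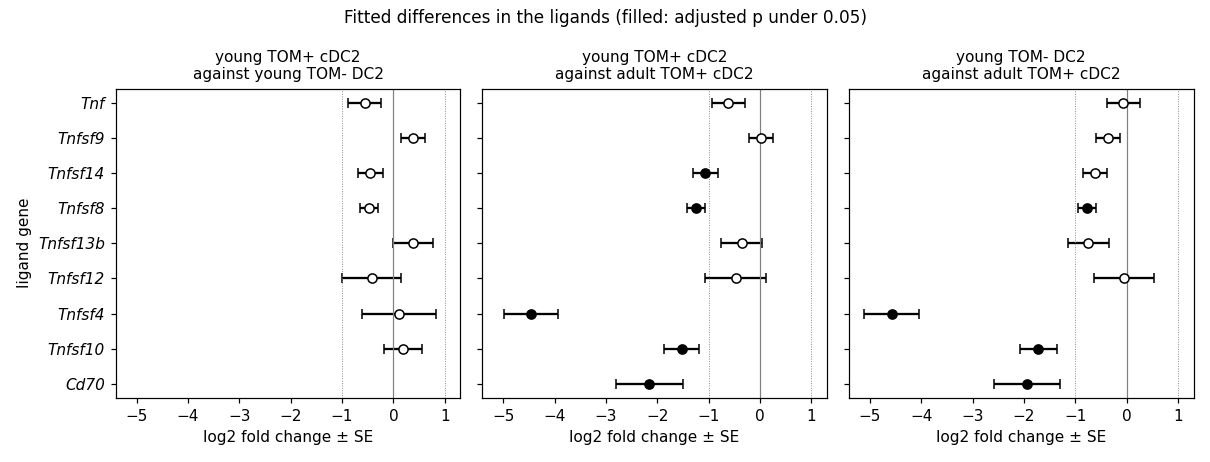
Fitted log2 fold change with its SE for the ligands in the 3 comparisons, first group minus second, so that points left of 0 are higher in the second group. Filled points have an adjusted p under 0.05 and dotted lines mark a change of 1 in either direction; *Tnfsf13*, and *Cd70* between the young groups, are left out because no library involved holds more than 3 reads. No point is filled in the left panel, 5 in the middle panel and 4 in the right panel.

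Comparison of TOM+ cDC2 with TOM- DC2 at day 8 addressed the effect of origin at the same age. None of the 10 ligands passed the edgeR test, and 1 (*Tnfsf8*) had an unadjusted p under 0.05. DESeq2 and limma also passed none. Over all genes, 1.60% passed in either direction. Within the pairs of libraries, 5 of the 10 ligands (*Tnf*, *Tnfsf9*, *Tnfsf8*, *Tnfsf14* and *Tnfsf12*) differed the same way in every pair, as did 43.1% of all genes, so the count by itself does not set the ligands apart. *Tnfsf12*, with 3 to 15 reads a library, was at 2.15, 1.42 and 1.01 times the TOM+ value in TOM- DC2. *Tnf* was higher in TOM- DC2 in 3 of 3 pairs, by 1.32-fold, 1.55-fold and 1.46-fold in CPM. *Tnfsf9* was lower in TOM- DC2 in 3 of 3 pairs, at 0.74, 0.73 and 0.82 of the TOM+ value.

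In TPM, *Tnf* measured 117, 245 and 252 in young TOM- DC2, against the 87.3, 155 and 168 of TOM+ cDC2. The groups overlapped because pair 1 was the lowest in each of them. Without the pairing the log2 fold change was -0.55 ± 0.32 (SE, n = 3, edgeR adjusted p = 0.69), and with the pair as a block it was -0.53 ± 0.15 (edgeR adjusted p = 0.10). *Tnfsf9* measured 85.6, 129 and 133 TPM in young TOM- DC2, with a log2 fold change of 0.39 ± 0.23 (SE, n = 3, edgeR adjusted p = 0.71) and of 0.39 ± 0.13 with the block (edgeR adjusted p = 0.18). The block thus narrowed both errors and passed neither gene. When the numbers carried by the adult libraries were blocked as well, the estimates stayed at -0.53 ± 0.10 and 0.39 ± 0.09 and both passed (edgeR adjusted p = 0.0048 and 0.017).

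*Tnfsf8* and *Tnfsf14* were also higher in TOM- DC2 in 3 of 3 pairs. *Tnfsf8* was at 5.33, 3.71 and 4.56 TPM in young TOM- DC2, with a log2 fold change of -0.47 ± 0.18 (SE, n = 3, edgeR adjusted p = 0.35). *Tnfsf14* was at 9.61, 7.78 and 9.13 TPM, with -0.45 ± 0.24 (SE, n = 3, edgeR adjusted p = 0.65). In both cases the young TOM- DC2 had a mean between those of young and adult TOM+ cDC2. The remaining ligands were low in both young populations, with 1 to 5 reads per library for *Tnfsf4*, 1 to 3 for *Cd70* and 15 to 36 for *Tnfsf10*. For *Tnfsf4* the estimate between the young groups was 0.11 ± 0.72 (SE, n = 3, edgeR adjusted p = 0.99), with a range of -1.33 to 1.54 at 2 SE, so that differences within this range were not detectable at this depth.

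**Figure D3:**
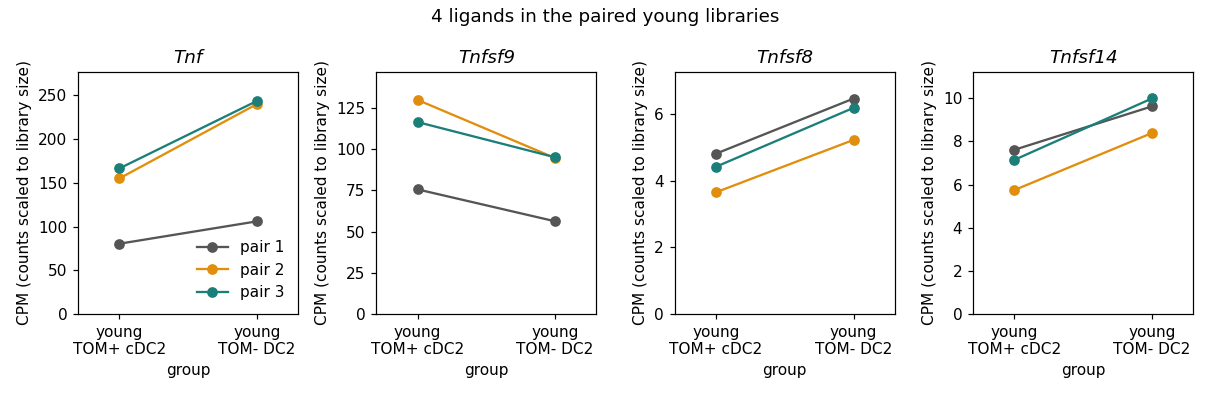
CPM (counts scaled to library size) of *Tnf*, *Tnfsf9*, *Tnfsf8* and *Tnfsf14* in young TOM+ cDC2 (left) and young TOM- DC2 (right), with a line joining the 2 libraries that share a number in the deposited names. All 3 lines rise for *Tnf*, *Tnfsf8* and *Tnfsf14* and fall for *Tnfsf9*, and pair 1 is lowest for *Tnf* and *Tnfsf9*.

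Young TOM- DC2 were also set against adult TOM+ cDC2. Here 4 of the 10 ligands were higher in adults and none was lower, and 3 of the 4 changed by more than 1 on the log2 scale. Of all genes tested, 16.9% were higher in adults and 4.78% by more than this size. This comparison and that of young TOM+ cDC2 share the adult libraries. *Tnfsf4* was at 0, 0.20 and 0.14 TPM in young TOM- DC2, with 8 reads in all, a 25.8-fold ratio (95% counting interval 12.7 to 60.8) and a log2 fold change of -4.57 ± 0.53 (SE, n = 3, edgeR adjusted p = 4.2e-05). *Tnfsf10* was at 0.42, 0.36 and 0.47 TPM and differed from adults by -1.72 ± 0.35 (SE, n = 3, edgeR adjusted p = 0.0025).

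*Tnfsf8* differed from adults by -0.78 ± 0.17 (SE, n = 3, edgeR adjusted p = 0.0037) and *Tnfsf14* by -0.62 ± 0.24 (SE, n = 3, edgeR adjusted p = 0.063). The *Tnfsf14* value passed without replicate 3 of adults (adjusted p = 0.011). *Cd70* was at 0.30, 0.40 and 0.27 TPM and differed by -1.94 ± 0.65 (SE, n = 3, edgeR adjusted p = 0.033), which no longer passed when any of the 3 TOM- libraries or adult replicate 1 or 2 was left out (adjusted p from 0.058 to 0.10). *Tnf* differed by -0.06 ± 0.32 (SE, n = 3, edgeR adjusted p = 0.89) and *Tnfsf9* by -0.36 ± 0.23 (SE, n = 3, edgeR adjusted p = 0.26).

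Of 7 other ligands of the superfamily tested, 3 were higher in adult than in young TOM+ cDC2, 4 did not pass and none was lower. For this and the following lists, the shares of all genes to set beside the counts are 19.5% higher in adults and 21.0% higher in young TOM+ cDC2. *Ltb*, the membrane anchor of lymphotoxin, lay at 348 to 429 TPM in young TOM+ cDC2, 522 to 597 TPM in young TOM- DC2 and 709 to 806 TPM in adults, so that it was more abundant than *Tnf* in every library. It was higher in adults by 1.11 ± 0.09 on the log2 scale (SE, n = 3, edgeR adjusted p = 2.3e-06). *Lta*, the soluble subunit, was lowest in young TOM+ cDC2, with adults higher by 1.23 (edgeR adjusted p = 0.00064) and young TOM- DC2 higher by 1.21 (edgeR adjusted p = 0.0093). Both flank *Tnf* on chromosome 17. *Fasl* was the third, by 2.27, at 0.16 to 3.45 TPM over the 9 libraries. Between the young groups *Tnfsf11* (RANKL) was the third ligand higher in TOM- DC2, at 1.26 to 4.86 TPM against at most 0.11 TPM in young TOM+ cDC2, and it was listed at 0 in all adult libraries (edgeR adjusted p = 0.00027 for young TOM- DC2 against adults). *Fasl* and *Tnfsf11* were named after their values were seen.

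Of 14 receptors of the 10 ligands tested, 4 were higher in adult and 4 higher in young TOM+ cDC2, with a median log2 fold change of -0.09. *Tnfrsf4* (OX40), the receptor of the most changed ligand, rose from 1.63 to 3.16 TPM in young TOM+ cDC2 to 11.2 to 27.6 TPM in adults, by 2.90 on the log2 scale. *Tnfrsf9*, the receptor of *Tnfsf9*, was higher in adults by 1.72 and *Tnfrsf1b* (TNFR2) by 1.14. *Tnfrsf9* was at 1.74 to 2.73 TPM in young TOM+ cDC2 and at 3.80 to 12.9 TPM in adults. The adult median was 3.80 TPM, so 1 adult library stood far above the others. In the opposite direction *Tnfrsf13c*, the BAFF receptor, was higher in young cells by 2.27, at 20.3 to 24.1 TPM against 3.69 to 4.88 TPM. No receptor passed between the young groups.

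Of 14 signalling adaptors downstream of these receptors, 7 were higher in adults, 1 was lower and 6 did not pass, with a median of -0.27. *Traf1* was higher by 1.35, *Birc3* by 1.12 and *Birc2* by 1.06. Of 10 other costimulatory ligands, 7 were higher in adults and none was lower, with a median of -0.93. *Cd80* was higher by 1.51, the PD-1 ligands *Cd274* and *Pdcd1lg2* by 1.49 and 1.52 and *Cd40* by 1.08. None of these adaptors or costimulatory genes passed between the young groups.

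Genes that act on TNF transcripts and on shedding were tested as well. Of 10 regulators of AU-rich transcripts, 2 were higher in adults and 4 in young TOM+ cDC2, with a median of 0.04. *Zfp36l1*, a protein that promotes decay of AU-rich transcripts, was higher in adults by 1.36 and *Zfp36* by 0.83. *Khsrp*, *Hnrnpd*, *Elavl1* and *Tia1* were higher in young cells by 0.75, 0.57, 0.35 and 0.28. The share of these regulators higher in adults was close to that of all genes. Of 10 genes of ligand processing and shedding, 2 were higher in young cells, a share close to that of all genes, and none in adults. These were *Rhbdf2*, which helps the TNF sheddase to mature, by 0.71, and the intramembrane protease *Sppl2b* by 0.34.

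**Figure D4:**
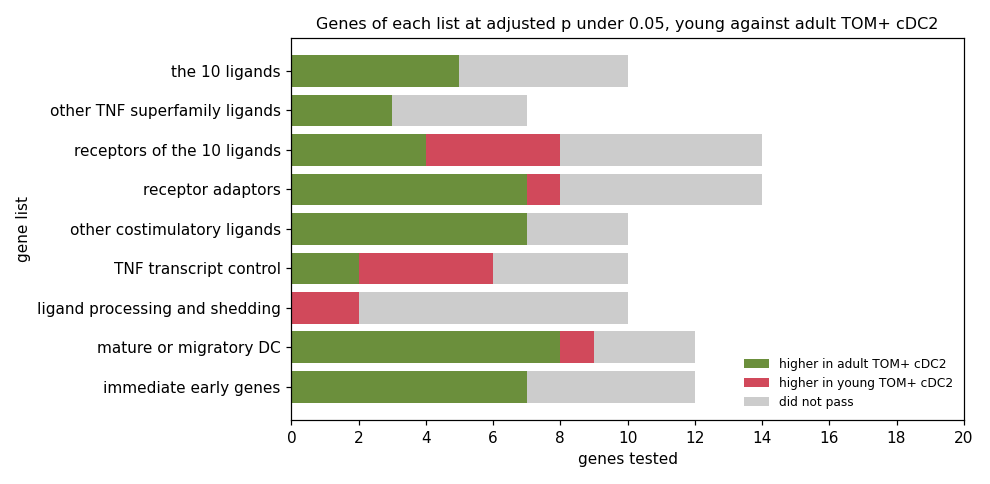
Number of genes of each list with an adjusted p under 0.05 in young against adult TOM+ cDC2, by direction (green, higher in adults; red, higher in young cells; grey, not passing). Bar length is the number of genes tested; 5 of the 10 ligands, 7 of 10 other costimulatory ligands and 8 of 12 genes of mature or migratory dendritic cells are higher in adults.

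Markers of mature or migratory dendritic cells also differed with age. Of 12, 8 were higher in adult than in young TOM+ cDC2 and 1 was lower, with a median of -1.75. *Ccr7*, the receptor that guides dendritic cells to T cell zones, was at 287 to 322 TPM in young TOM+ cDC2, 365 to 504 TPM in young TOM- DC2 and 1493 to 2328 TPM in adults. *Cacnb3*, *Cd200* and *Nudt17* were higher in adults by 2.60, 2.36 and 2.19. The summed level of the list was 2667 to 2882 TPM, 2975 to 3503 TPM and 7025 to 9168 TPM in the same order, and no marker was at 0 in a whole group. *Cd83* was the largest part of this sum, at a mean of 1457, 1798 and 4311 TPM. In the opposite direction, *Ccl17* was at 2.33 to 6.26 TPM in young TOM+ cDC2 and 0.22 to 0.87 TPM in adults. The TPM ranges of *Fscn1*, *Ccl22* and *Marcksl1* overlapped between young and adult TOM+ cDC2. Of 6 markers of ESAM-high cDC2, 4 were higher in adults, with *Esam* by 2.21 and *Dtx1* by 2.02. Their summed level was 261 to 341 TPM in young TOM+ cDC2, 311 to 437 TPM in young TOM- DC2 and 546 to 595 TPM in adults. Of 6 markers of ESAM-low cDC2, 2 were higher in adults and 3 in young TOM+ cDC2. The 12 general markers of cDC2 had 8 higher in adults and 3 in young TOM+ cDC2. The part of any of these populations in the ligand differences was not tested.

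Immediate early genes, which respond within minutes to stress or activation and can be induced by cell isolation, were higher in adults for 7 of 12, with *Egr2* by 1.34. Their summed level was 12224 to 17187 TPM in young TOM+ cDC2, 11873 to 17508 TPM in young TOM- DC2 and 18540 to 24716 TPM in adults. The lowest value of each young group was that of pair 1, as for *Tnf*. With both libraries of pair 1 left out, 5 ligands passed between young and adult TOM+ cDC2, 3 between young TOM- DC2 and adults and none between the young groups. The part of these genes in the *Tnf* values was not tested.

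Markers of other leukocytes were measured as well, among them those of T cells, which make several of these ligands when activated. In the adult libraries the T cell markers other than *Cd5* were at 0 to 0.81 TPM, with *Cd3d* at 0.42 to 0.81 TPM and *Cd3e* at 0 to 0.08 TPM. The summed level of the 8 T cell markers, most of it from *Cd5*, was 27.97 to 28.96 TPM in young TOM+ cDC2, 43.2 to 47.9 TPM in young TOM- DC2 and 21.9 to 32.1 TPM in adults, with 2 markers at 0 in all adult libraries. The part of T cells in the ligand values was not tested. Of 7 B cell markers tested, 4 were higher in adults and 1 in young TOM+ cDC2. *Ms4a1* was higher in adults by 2.88, although the summed level of the B cell list was 61.8 to 71.8 TPM in young TOM+ cDC2 and 45.2 to 58.4 TPM in adults.

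Some genes followed the ligands closely across the 9 libraries, as a description in which the 9 libraries share the age difference. The 3 genes most like *Tnfsf4* in log2(TPM + 1), among 9084 genes with a mean of at least 5 TPM, were *Nampt*, *Stk17b* and *Pfkfb3*, with Pearson r of 0.986, 0.985 and 0.985. For *Tnfsf8* they were *Rogdi*, *Eef2k* and *Adck3* (r = 0.985, 0.985 and 0.984), and for *Tnfsf10* they were *Usp37*, *Tcirg1* and *Trafd1* (r = 0.952, 0.944 and 0.943).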

How the data were processed

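mRNA from sorted spleen cells was amplified (SMART-seq v4) and sequenced without strand information. The authors aligned reads to mm10 with STAR and deposited STAR counts per gene, not normalized, and RSEM files, from which TPM and expected counts were used; tool versions are not given in the sources used here. The unstranded counts were used. Reads not assigned to a single gene (unmapped, multimapping, ambiguous or on no gene) made up 26.1 to 31.6% and were left out. Counts of the 9 libraries were fitted in 1 model with 3 groups (edgeR 4.0.16, R 4.3.3, TMM factors, quasi-likelihood test, average count of at least 1). The SE of an edgeR estimate was derived from the test, as the absolute log2 fold change divided by the square root of the F statistic. A gene passed at a Benjamini-Hochberg adjusted p under 0.05 over all genes and was called where the log2 fold change was also beyond 1. TPM, which accounts for gene length, was used for levels. Groups came from cell type and age in the labels. Nothing in the labels says which mice went into which library, so p-values measure the spread between these libraries.

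The young libraries share numbers in their deposited names, and adult replicates 1 and 2 carry 2 of the same numbers, whose meaning the labels do not give. Deviations from the group means of same-numbered libraries correlated at r = 0.759, 0.536 and 0.520 over 10112 genes and those of other combinations at -0.524 to 0.147, and the numbers were taken to pair the young libraries, and not the adult ones. No libraries of a group were copies of each other. Alternatives were DESeq2 1.42.0, RLE factors, other filters, RSEM expected counts (rounded), limma 3.58.1 on log2(TPM + 1) and log2(TPM + 0.1), fits of 2 groups, the replicate block (for the young pairs and, added later, for all numbers) and leaving out each library. The fits were tested on simulated data. Counting intervals are exact and cover counting error only. All ligands were named, and from each list up to 4 called genes of largest change whose counts averaged 50 or more (or, with none called, the 2 of smallest p), and for the 3 ligands with the smallest p the 3 most similar genes. Some further genes of the lists were named with their values known. The members and gene lists were chosen with earlier results of these data known. Promoters came from RefSeq and 3′ untranslated regions from GENCODE M21, for the transcript with the longest region; 6 of the 10 ligands had a promoter window.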

Additional observations from a re-analysis of the deposited data

How the results depend on the processing

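Between young and adult TOM+ cDC2, limma on log2(TPM + 1) passed 3 ligands and called 1, on log2(TPM + 0.1) passed 3 and called 2, and on log2(TPM + 1) with no filter called 1; between young TOM- DC2 and adults, limma passed 2 and called 1 with either pseudocount, and called 1 with no filter. The filter on mean TPM removes scarce ligands and a pseudocount of 1 shrinks their changes; TPM also moved the median log2 fold change of all genes to between 0.16 and 0.20 in the filtered fits. DESeq2, RLE factors, other count filters, RSEM counts and fits of 2 groups kept the counts of ligands passing within 1.5 times. With a library left out, 4 to 5 ligands passed and 3 to 5 were called between young and adult TOM+ cDC2, 3 to 5 passed and 2 to 3 were called between young TOM- DC2 and adults, and 0 between the young groups. Between young TOM- DC2 and adults, *Cd70* did not pass with DESeq2 (adjusted p = 0.059), with no filter (0.057) or without pair 1 (0.071), and *Tnfsf14* passed with DESeq2 (0.036) and no filter (0.044). The replicate block over the young pairs changed no call. Adult replicates 1 and 2 carry numbers of young pairs 2 and 3, but deviations of same-numbered young and adult libraries correlated at only 0.0079 to 0.18 (others -0.18 to 0.083), so these were not taken as paired. A replicate block over the numbers of all 9 libraries, chosen after seeing the data, passed 2 ligands between the young groups (*Tnf* and *Tnfsf9*), 7 between young and adult TOM+ cDC2 (these 2 in addition, *Tnfsf9* as higher in young cells) and 4 between young TOM- DC2 and adults, where *Tnfsf14* passed (0.00023) and *Cd70* did not (0.056).

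Signs turned only for estimates that did not pass. *Tnfsf9* between young and adult TOM+ cDC2 was -0.0012 with an average count of at least 10 and -0.0066 with RSEM counts; *Tnf* between young TOM- DC2 and adults was 0.025 with limma, also with no filter, 0.025 with log2(TPM + 0.1), 0.22 without pair 1 and 0.15 with the block over all 9 libraries, and *Tnfsf12* was 0.20 and 0.31 in the last 2 of these. Between the young groups, without pair 1, *Tnfsf4* was -0.14 and *Tnfsf10* -0.22. With a library left out, the ranges between the young groups were -0.39 to 0.60 for *Tnfsf4*, -0.17 to 0.47 for *Tnfsf10*, -0.77 to 0.0015 for *Tnfsf12*, -1.29 to 0.19 for *Tnfsf13* and -0.52 to 0.16 for *Cd70*; between young and adult TOM+ cDC2 -0.14 to 0.23 for *Tnfsf9* and -0.66 to 0.21 for *Tnfsf13b*; between young TOM- DC2 and adults -0.27 to 0.24 for *Tnf* and -0.47 to 0.23 for *Tnfsf12*. By CPM, *Tnf* and *Tnfsf9* made up 89.5% of the adult ligands in place of 91.7%. Depth limits *Tnfsf4*, *Tnfsf13* and *Cd70* in young cells, with at most 5 reads a library.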

Other observations

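The ratio of *Tnf* to *Tnfsf9* within a library, chosen after the values of both genes were seen and therefore given with no test, was 0.792, 0.881 and 1.05 in TPM in young TOM+ cDC2. It was 1.37, 1.89 and 1.89 in young TOM- DC2 and 1.53, 1.79 and 1.09 in adult TOM+ cDC2.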
